A study of Mus musculus with 6 samples.

Results

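Respiratory complexes II to V pass electrons from succinate and ubiquinol to oxygen and use the proton gradient so built to make ATP. Complex II (succinate dehydrogenase) is also an enzyme of the citrate cycle. Complex III (the cytochrome bc1 complex) hands electrons to the small soluble carrier cytochrome c, complex IV (cytochrome c oxidase) reduces oxygen, and complex V is the ATP synthase. In liver and most other tissues the nuclear genes of these complexes are transcribed at high levels, and several subunits have heart and muscle or testis forms encoded by separate genes.

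Nuclear genes of these complexes were taken by name from a table of 24054 genes, as the 4 genes Sdha to Sdhd, Cyc1 and Cycs, and every gene whose symbol begins with Uqcr, Cox4i, Cox5, Cox6, Cox7, Cox8 or Atp5. The names matched 49 genes, and 44 reached the required 10 counts over the 6 libraries. They comprise 4 genes of complex II, 9 of complex III, Cycs, 13 of complex IV, 15 of complex V and 2 further genes, Atp5s and Atp5sl, that share only the prefix. The current RefSeq symbols of that pair are Dmac2l and Dmac2, and neither is an ATP synthase subunit. The 5 names left out, Cox4i2, Cox6b2, Cox7b2, Cox8b and Cox8c, had 0 counts in every library. All 44 genes passed the filter on low counts and were tested.

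The libraries were made from total RNA of the mouse line TIBx, whose cell type is labelled liver BNL 1ME A.7R.1. The TIBx-DNAJ-PKAc line carries the genotype DNAJ-PKAc, in which part of DNAJB1, a co-chaperone, is joined to protein kinase A's catalytic subunit, as in fibrolamellar carcinoma of the liver. It was compared with its parental line, genotype WT, with 3 libraries (replicates A to C) in each group. Both lines grew in the same medium, DMEM with fetal serum, glutamine, antibiotics, pyruvate, nonessential amino acids and HEPES. Each genotype is a single line, so an effect of the fusion and any other difference between the 2 lines cannot be told apart. The labels do not say how the fusion was introduced or whether replicates are separate cultures. The p-values therefore reflect only how far these libraries spread, and that spread may be technical. The study title names metabolic rewiring as its question.

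Each library held between 8095549 and 9969590 expected counts, so 1 count equals 0.099 to 0.124 CPM (counts scaled to a common library total). Each group held a library that stood apart. In WT B the ribosomal precursor Rn45s took 2.66% of counts, against 0.912% to 1.05% elsewhere. Its nuclear RNA Malat1 was at 10412 CPM of the plain total, against 1065 to 4639. DNAJ-PKAc C correlated with DNAJ-PKAc A and B at 0.914 and 0.911 across genes, where A and B correlated at 0.993. A list of 15 cell cycle genes summed to 2800, 2939 and 358 CPM in DNAJ-PKAc, against 764, 719 and 887 CPM in WT. The 8 hepatocyte markers, among them Alb, Ttr and Hnf4a, had 0 counts in every library, so no defining hepatocyte transcript was detected at this depth. Of 5 fetal liver markers Afp alone was tested and was called higher (edgeR adjusted p = 0.0252), and the list summed to 10.2, 7.53 and 2.32 CPM in DNAJ-PKAc, against 0.329, 0 and 0.110 CPM in WT. Of 7 fibroblast or stellate markers 5 were tested and none passed, all with log2 differences below 0 (median -0.72). Their sums were 4716, 4471 and 17227 CPM in DNAJ-PKAc, against 10874, 13737 and 13200 CPM in WT, so A and B lay below every WT library and C above. The 5 cholangiocyte markers summed to 365, 385 and 3150 CPM in DNAJ-PKAc, against 1171, 884 and 2152 CPM in WT, nearly all of it Spp1, while Krt19 and Epcam had 0 counts. Of that list Sox9 lay below WT in every DNAJ-PKAc library (log2 -1.67, edgeR adjusted p = 0.0955). Summed leukocyte, endothelial, erythroid and striated muscle markers stayed at or under 4.82 CPM per list and library. Apart from that of Malat1, CPM values of genes and lists, and of 1 count, are scaled by the trimmed mean of M-values (TMM). A run of 3 values follows the order of the replicate letters.

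With all 6 libraries, 0 of the 44 genes passed in either direction at an adjusted p under 0.05 (quasi-likelihood test of edgeR, adjusted by Benjamini-Hochberg over 10975 genes). Over all genes tested 3.51% passed, 1.37% higher and 2.14% lower in DNAJ-PKAc (150 and 235 genes, or 114 and 295 with upper-quartile factors). At an unadjusted p under 0.05 stood 16 of the 44, or 36.4%, against 21.5% of all genes. DESeq2 called 3 higher, Atp5b, Cox4i1 and Uqcr11 (adjusted p = 0.0217, 0.0484 and 0.0452), limma-voom called 0, and limma-voom with library quality weights called 20 higher and 3 lower. Over all genes DESeq2 called 8.87% in either direction, 348 genes higher and 626 lower. The quality weights called 46.2% in either direction, 2757 genes higher and 2317 lower. The fitted log2 differences, DNAJ-PKAc minus WT, ran from -0.93 to 0.96 with a median of 0.36, and 40 of 44 lay above 0 (38 with RLE and 36 with upper-quartile factors, with medians of 0.31 and 0.28). Over all genes the median was 0.05 and 53.9% lay above 0. Groups did not overlap for 18 of the 44 genes with DNAJ-PKAc above WT, against 15.8% of all genes, and for 1 with DNAJ-PKAc below WT, against 13.1%. In RNA from whole cultures, fewer cells with high levels and less RNA per cell cannot be told apart.

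**Figure D1:**
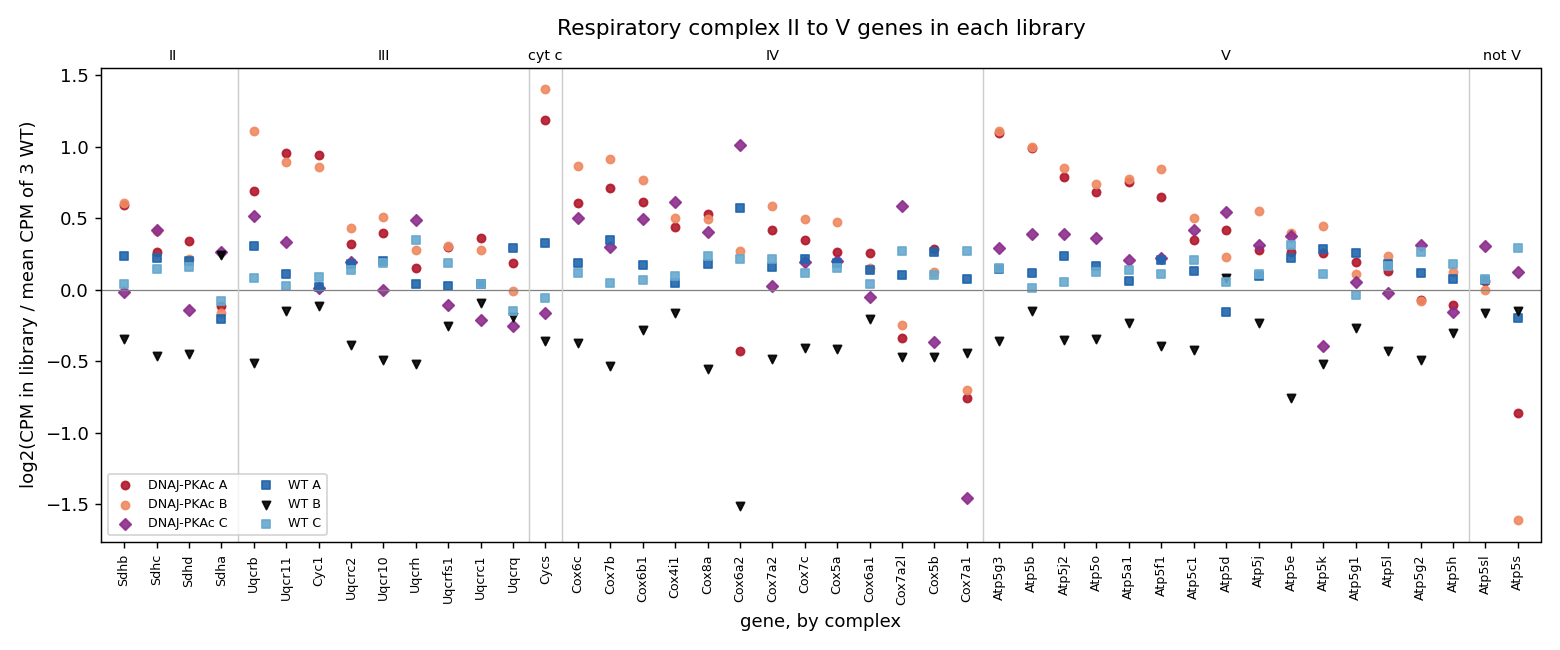
Level of each of the 44 genes in each library, as log2 of its CPM over the mean CPM of the 3 WT libraries (y axis), by complex and within a complex by the fitted difference (x axis). Black triangles (WT B) lie lowest of the 6 libraries for 38 genes, and a red or orange circle (DNAJ-PKAc A or B) lies highest for 30.

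The size of the median difference depended on WT B. This library had the lowest level of all 6 for 38 of the 44 genes, or 86.4%, against 25.1% of all genes tested. Against the WT mean, the median of the 44 genes was 0.34, 0.46 and 0.24 in DNAJ-PKAc, against 0.17, -0.36 and 0.12 in WT, on the log2 scale. Without WT B the median log2 difference was 0.13, and 31 of 44 genes lay above 0, against 53.9% of all genes. In that fit edgeR called 0 of the 44, against 0.994% of all genes called in either direction. With DNAJ-PKAc C left out the median was 0.38 and 38 of 44 genes lay above 0, against 50.2% of all genes. There 12 of 44, or 27.3%, were called higher and 0 lower, against 14.3% and 11% of all genes. Without both libraries 31 lay above 0, against 49.7% of all genes, and 18 were called higher and 4 lower, against 23.9% and 24.5%. The part that the RNA makeup of WT B, or the cell cycle, fibroblast and cholangiocyte markers that set DNAJ-PKAc C apart, play in these differences was not tested.

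**Figure D2:**
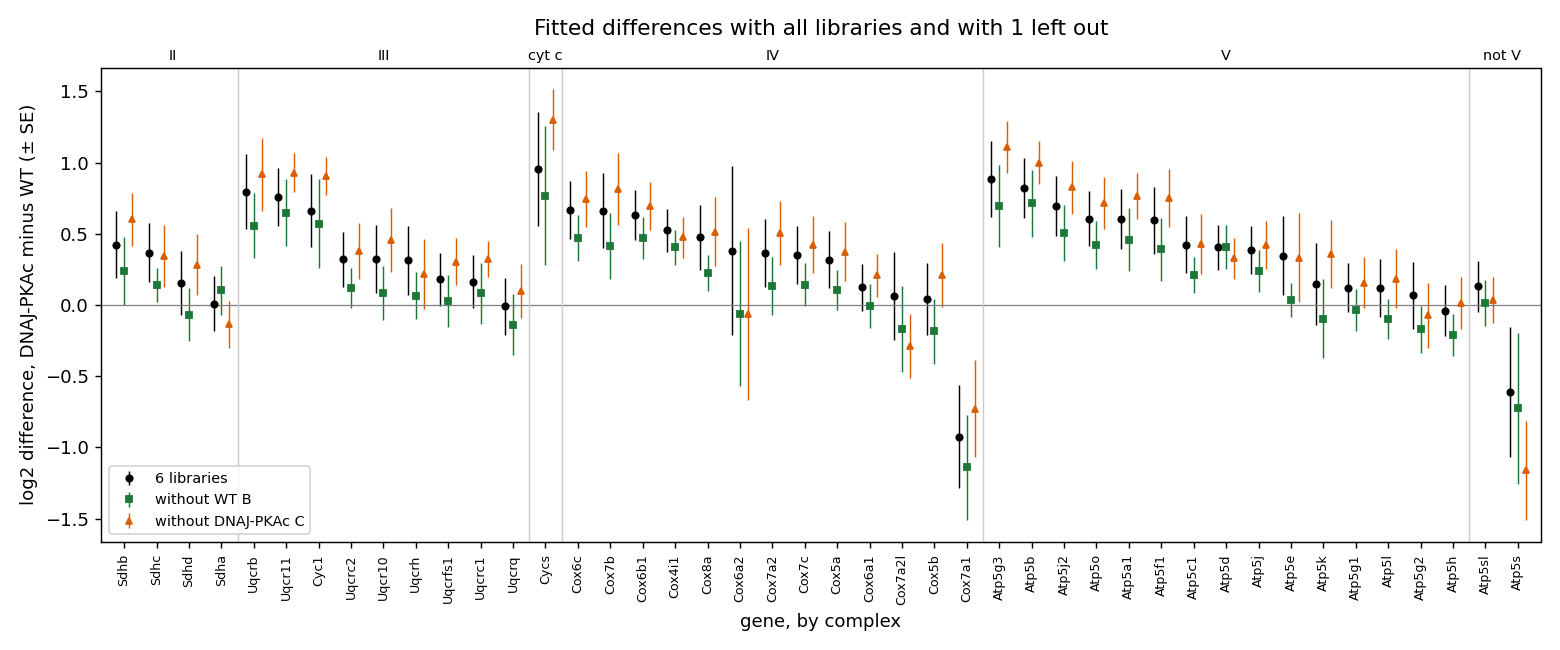
Fitted log2 difference, DNAJ-PKAc minus WT, with its SE for each gene (y axis), from all 6 libraries (black circles), without WT B (green squares) and without DNAJ-PKAc C (orange triangles). The median over the 44 genes is 0.36, 0.13 and 0.38 in these 3 fits.

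Genes of this kind are known for promoters bound by the factors NRF1, GABPA (of the ETS family) and YY1, and the rat cytochrome c gene is known for cyclic AMP response elements (CRE) bound by CREB, a substrate of protein kinase A. Promoter windows from RefSeq (GRCm38.p6, 250 bases before to 50 after the start) were found for 35 of the 44 genes, and motifs were searched on both strands. The motifs were chosen after the expression values were known. An ETS core, CCGGAAG, was in the windows of 12 of the 35 genes, or 34.3%, against 9.93% of all 27025 genes with a window and 21.9% of the 8832 that were also tested here. The palindromic core of the NRF1 motif was in 4 (Atp5g2, Atp5k, Cox6a1 and Uqcrc1), or 11.4%, against 1.07% of all genes and 2.5% of tested genes. The YY1 core AAGATGGC was in 4 (Atp5f1, Atp5j, Atp5j2 and Atp5sl), or 11.4%, against 3.19% and 5.76%. A full CRE, TGACGTCA, was in 2, Cycs and Uqcrfs1, or 5.71%, against 2.03% and 3.84%. Its 5-base core TGACG, which every full CRE holds, was in 11 genes, or 31.4%, against 23.0% and 37.2%. The box CCAAT was in 20 genes, or 57.1%, against 41.1% and 44.0%, and the ERRA core TCAAGGTCA in 2 (Atp5g3 and Sdhd), or 5.71%, against 0.466% and 0.294%. These are matches of letters, not sites shown to be bound.

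The 250 bases before the start are shown for the 2 genes with a full CRE and for Uqcr11 and Cox6b1, which have an ETS core and the smallest p of complexes III and IV. Capitals mark the full CRE or the ETS core, read 5′ to 3′ on the strand of the gene, which is the minus strand for all 4 (GRCm38.p6).
Cycs, chr6:50566570-50566819: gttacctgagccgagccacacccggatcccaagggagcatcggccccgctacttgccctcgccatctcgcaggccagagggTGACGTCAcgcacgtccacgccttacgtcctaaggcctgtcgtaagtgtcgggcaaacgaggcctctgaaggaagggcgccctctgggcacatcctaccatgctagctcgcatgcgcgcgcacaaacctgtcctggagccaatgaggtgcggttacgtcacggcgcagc
Uqcrfs1, chr13:30545317-30545566: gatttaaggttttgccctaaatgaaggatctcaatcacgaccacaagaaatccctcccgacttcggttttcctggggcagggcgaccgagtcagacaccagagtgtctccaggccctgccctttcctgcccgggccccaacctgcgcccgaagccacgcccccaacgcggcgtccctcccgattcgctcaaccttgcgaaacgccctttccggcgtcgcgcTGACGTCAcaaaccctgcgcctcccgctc
Uqcr11, chr10:80406822-80407071: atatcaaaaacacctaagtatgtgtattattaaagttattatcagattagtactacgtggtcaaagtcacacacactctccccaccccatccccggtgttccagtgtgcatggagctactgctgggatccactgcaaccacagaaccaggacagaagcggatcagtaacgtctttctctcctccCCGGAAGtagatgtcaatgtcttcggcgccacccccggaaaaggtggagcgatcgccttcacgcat
Cox6b1, chr7:30626115-30626364: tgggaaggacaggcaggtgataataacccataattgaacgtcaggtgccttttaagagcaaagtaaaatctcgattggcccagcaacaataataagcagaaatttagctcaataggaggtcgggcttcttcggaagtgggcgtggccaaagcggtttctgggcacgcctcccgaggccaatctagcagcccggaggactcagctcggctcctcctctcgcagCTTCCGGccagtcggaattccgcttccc
The full CRE begins 169 bases before the start in Cycs and 29 bases before it in Uqcrfs1. The ETS core begins 66 bases before the start in Uqcr11 and 28 bases before it, on the opposite strand, in Cox6b1.

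With all 6 libraries complex II had the smallest median log2 difference of the 4 complexes, 0.26 (0.12 without WT B), and 0 of its 4 genes passed the test. Sdha, the flavoprotein that oxidises succinate, was at 155, 150 and 201 CPM in DNAJ-PKAc, against 146, 198 and 159 CPM in WT. The groups overlapped, and the log2 difference was 0.01 (SE 0.19, edgeR adjusted p = 0.982), or -0.04 with RLE and -0.05 with upper-quartile factors. Sdha was 1 of 3 genes, with Atp5d and Atp5s, in which WT B was not the lowest WT library. Sdhb, the iron-sulfur subunit, was at 180, 181 and 118 CPM in DNAJ-PKAc, against 140, 93.7 and 122 CPM in WT. DNAJ-PKAc A and B lay above every WT library and C did not, and the log2 difference was 0.42 (SE 0.23, adjusted p = 0.322). Sdhc, a membrane anchor subunit, was at 107, 118 and 119 CPM in DNAJ-PKAc, against 103, 64.4 and 98.3 CPM in WT. It was the only gene of complex II whose groups did not overlap (25%, against 15.8% of all genes with DNAJ-PKAc above WT). Its log2 difference of 0.37 (SE 0.21, adjusted p = 0.328) was 0.14 without WT B. Sdhd, the other membrane anchor, was at 162, 148 and 115 CPM in DNAJ-PKAc, against 147, 93.2 and 142 CPM in WT. DNAJ-PKAc C lay inside the WT range, and the log2 difference of 0.15 (adjusted p = 0.713) was -0.07 without WT B. Of the complex II assembly factors Sdhaf1 to Sdhaf4, 2 were in the table and tested and 0 passed, with Sdhaf1 at a log2 difference of 0.35 and Sdhaf2 at 0.24.

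For the 9 genes of complex III the log2 difference had a median of 0.32, 8 lay above 0 and 0 passed. Without WT B that median was 0.08, the lowest of the 4 complexes. Uqcr11, a small membrane subunit, was at 270, 258 and 174 CPM in DNAJ-PKAc, against 150, 125 and 141 CPM in WT. The groups did not overlap, and the difference was 1.69-fold (log2 0.76, SE 0.20, edgeR adjusted p = 0.106). Uqcrb, the subunit that contacts ubiquinone and helps to nucleate the complex, was at 42.0, 56.1 and 37.2 CPM in DNAJ-PKAc, against 32.1, 18.2 and 27.5 CPM in WT. All 3 DNAJ-PKAc libraries lay above WT, by 1.74-fold (log2 0.80, SE 0.26, adjusted p = 0.158), the largest difference in the complex. Cyc1, which encodes the cytochrome c1 that passes electrons on to cytochrome c, was at 273, 258 and 143 CPM in DNAJ-PKAc, against 144, 131 and 151 CPM in WT. DNAJ-PKAc A and B were high, C lay within the narrow WT range, and the log2 difference was 0.66 (SE 0.26, adjusted p = 0.205). Without DNAJ-PKAc C, Cyc1 (log2 0.90, adjusted p = 0.0047), Uqcr11 (0.93, 0.0049) and Uqcrb (0.92, 0.0421) were called higher. They made up 33.3% of the complex, against 14.3% of all genes called higher in that fit.

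The other genes of complex III differed less. Uqcrfs1, the Rieske iron-sulfur protein, was at 144, 145 and 109 CPM in DNAJ-PKAc, against 120, 98.4 and 133 CPM in WT (log2 0.18, edgeR adjusted p = 0.596). Uqcrc1, a core protein with the most counts of the complex, was at 277, 262 and 187 CPM in DNAJ-PKAc, against 223, 202 and 223 CPM in WT (log2 0.16, adjusted p = 0.626). In both, DNAJ-PKAc A and B lay above every WT library and C lay inside or below the WT range. Uqcrq, a small subunit beside cytochrome b, was at 68.8, 59.9 and 50.7 CPM in DNAJ-PKAc, against 73.6, 52.7 and 54.3 CPM in WT. Its groups overlapped, and its log2 difference of -0.01 was the lowest of the complex. The core protein gene Uqcrc2 (log2 0.32) had no overlap between groups, while Uqcr10 (0.32) and the hinge protein gene Uqcrh (0.31) overlapped. Of 6 complex III assembly factors, 5 were tested, 0 passed, and 3 lay below 0. Groups did not overlap for 2 with DNAJ-PKAc above WT, or 40%, against 15.8% of all genes. They also did not overlap for 2 with DNAJ-PKAc below WT, against 13.1% of all genes. The AAA protein gene Bcs1l, which inserts the Rieske protein, was at 8.61, 6.42 and 11.1 CPM in DNAJ-PKAc, against 13.4, 16.5 and 17.2 CPM in WT, with no overlap (log2 -0.85, SE 0.26, adjusted p = 0.135). Uqcc1, needed to make cytochrome b, was at 58.3, 60.9 and 137 CPM in DNAJ-PKAc, against 48.9, 37.2 and 44.6 CPM in WT (log2 0.97, adjusted p = 0.184). Its groups also had no overlap, and DNAJ-PKAc C stood far above A and B.

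Cycs, the somatic cytochrome c, had the largest fitted difference of the 44 genes, with a wide spread within DNAJ-PKAc. It was at 507, 590 and 200 CPM in DNAJ-PKAc, against 280, 174 and 214 CPM in WT. DNAJ-PKAc A and B stood far above the WT libraries and C stood among them. With a mean of 432 ± 206 CPM in DNAJ-PKAc and 223 ± 53.7 CPM in WT (SD, n = 3 each), the log2 difference was 0.96 (SE 0.40, edgeR adjusted p = 0.228). Leaving out DNAJ-PKAc C gave a 2.46-fold difference (adjusted p = 0.0072). The summed cell cycle genes were also highest in these libraries but below WT in C, with DNAJ-PKAc A and B at 2800 and 2939 CPM and C at 358 CPM. Their part in the result was not tested.

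**Figure D3:**
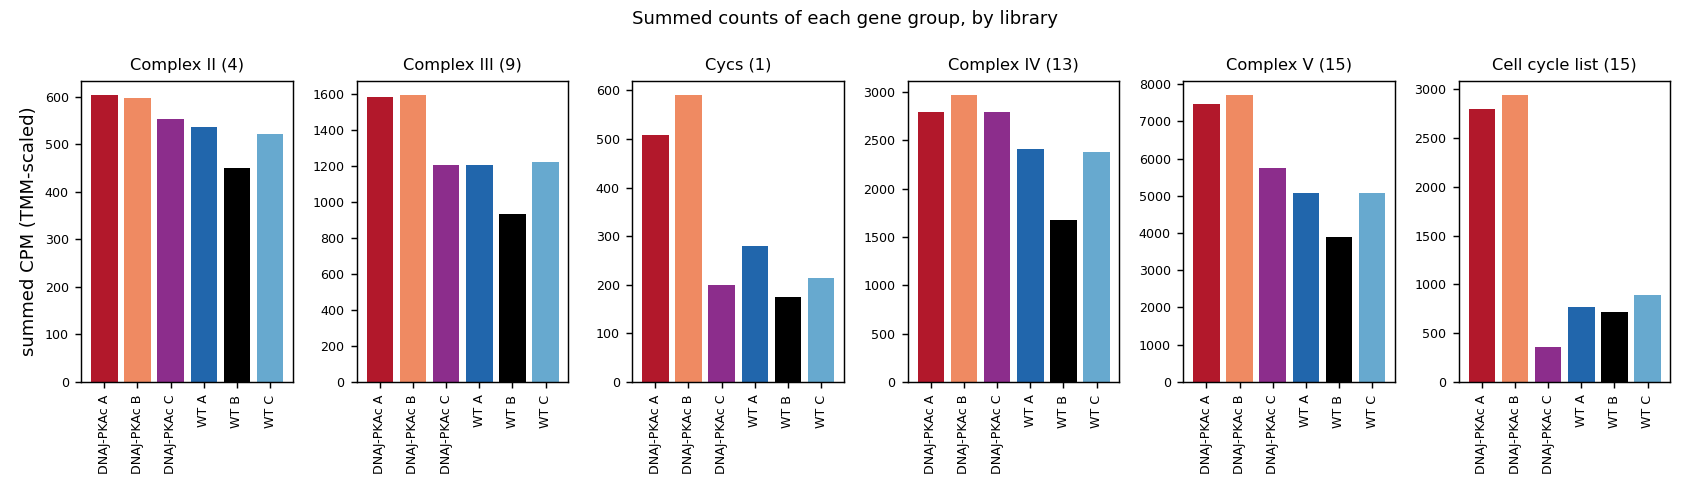
Summed TMM-scaled CPM of the genes of each complex, of Cycs and of 15 cell cycle genes (one panel each, own y axis from 0), for the 3 DNAJ-PKAc and then the 3 WT libraries (x axis). Complex III sums to 1583, 1590 and 1205 CPM in DNAJ-PKAc, against 1201, 931 and 1223 CPM in WT.

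Of the 13 complex IV genes 12 lay above 0 and 0 passed, and the median log2 difference was 0.36. Without WT B 8 of 13 lay above 0 and the median was 0.13. Its summed level was 2794, 2966 and 2798 CPM in DNAJ-PKAc, against 2406, 1674 and 2383 CPM in WT. In this sum DNAJ-PKAc C stood with A and B, and the WT libraries lay below all 3. Gene by gene, C was the lowest DNAJ-PKAc library for 10 of the 13, and the highest for Cox4i1, Cox6a2 and Cox7a2l. Cox4i1, the ubiquitous form of the largest nuclear subunit, was at 563, 586 and 635 CPM in DNAJ-PKAc, against 429, 370 and 443 CPM in WT. The groups did not overlap, and the difference was 1.44-fold (log2 0.52, SE 0.15, edgeR adjusted p = 0.123, DESeq2 adjusted p = 0.0484). Its lung and oxygen-responsive form, Cox4i2, had 0 counts.

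Cox6b1, a subunit that joins the 2 monomers of the enzyme, was at 298, 330 and 273 CPM in DNAJ-PKAc, against 219, 160 and 203 CPM in WT. All 3 DNAJ-PKAc libraries lay above WT, by 1.55-fold (log2 0.63, SE 0.18, edgeR adjusted p = 0.115), and the testis form Cox6b2 had 0 counts. Cox6c, a small membrane subunit, was at 279, 333 and 259 CPM in DNAJ-PKAc, against 209, 142 and 198 CPM in WT. It had the largest positive difference of complex IV, 1.59-fold (log2 0.67, SE 0.20, adjusted p = 0.132), with no overlap. Cox6b1 (log2 0.70, adjusted p = 0.0266) and Cox6c (0.74, 0.0357) were the 2 genes of this complex called higher without DNAJ-PKAc C. They made up 15.4% of the complex, near the 14.3% of all genes called higher in that fit. Cox8a, the ubiquitous form of subunit VIII, was at 378, 369 and 347 CPM in DNAJ-PKAc, against 298, 179 and 309 CPM in WT (log2 0.48, adjusted p = 0.270). Its groups did not overlap, and Cox8b and Cox8c, the muscle and testis forms, had 0 counts. Cox7b was at 178, 205 and 134 CPM in DNAJ-PKAc, against 139, 75.3 and 112 CPM in WT (log2 0.66, adjusted p = 0.214), with DNAJ-PKAc C inside the WT range and 0 counts of its relative Cox7b2. Cox5a (log2 0.32) had no overlap, and Cox7c (0.35) and Cox5b (0.04, or -0.04 with upper-quartile factors) overlapped. Cox7c was the only 1 of the 44 genes whose expected counts were not whole (to within 0.001), in all 6 libraries. A fractional count arises where reads are divided between genes, so its value is uncertain.

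The genes of heart and muscle type, Cox6a2 and Cox7a1, were at or under 3.64 CPM in every library, and summed striated muscle markers at or under 0.487 CPM. Cox6a1, the liver form of subunit VIa, was at 196, 182 and 158 CPM in DNAJ-PKAc, against 181, 143 and 169 CPM in WT (log2 0.12, edgeR adjusted p = 0.677). Cox6a2 was at 0.990, 1.61 and 2.68 CPM in DNAJ-PKAc, against 1.97, 0.467 and 1.55 CPM in WT (log2 0.38, SE 0.59). Both overlapped between groups, and an exon of Cox6a2 overlaps Itgad on the other strand. Cox7a1 was at 1.78, 1.85 and 1.10 CPM in DNAJ-PKAc, against 3.18, 2.22 and 3.64 CPM in WT. It was the only 1 of the 44 genes with every DNAJ-PKAc library below every WT library (log2 -0.93, SE 0.36, adjusted p = 0.208), from 9 to 33 counts per library.

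Within the Cox7a family the balance of the genes differed between libraries of the same group. Cox7a2, the liver form, was at 178, 201 and 136 CPM in DNAJ-PKAc, against 149, 95.8 and 155 CPM in WT (log2 0.36, edgeR adjusted p = 0.398). Cox7a2l, also called SCAF1, joins complexes III and IV into supercomplexes and was at 243, 258 and 460 CPM in DNAJ-PKAc, against 329, 221 and 369 CPM in WT (log2 0.06, or -0.01 with upper-quartile factors, SE 0.31, adjusted p = 0.915). DNAJ-PKAc C was the highest library for Cox7a2l and the lowest of its group for Cox7a2. As a share of the counts of Cox7a1, Cox7a2 and Cox7a2l together, Cox7a2l took 57.4% (exact 95% interval 55.9 to 58.9), 56.0% (54.3 to 57.6) and 77.0% (75.8 to 78.2) in DNAJ-PKAc. In WT it took 68.3% (66.9 to 69.7), 69.2% (67.5 to 71.0) and 69.9% (68.5 to 71.2). The intervals of the 3 WT libraries, WT B included, overlapped, while DNAJ-PKAc A and B lay below them and C above. A share within a library does not depend on the scaling of libraries, and these intervals cover counting error only. Leaving out DNAJ-PKAc C, Cox7a2l had a log2 difference of -0.29 (adjusted p = 0.376). It was called lower in 2 other fits, with library quality weights (log2 -0.41, limma adjusted p = 0.0288) and without both WT B and DNAJ-PKAc C (log2 -0.53, edgeR adjusted p = 0.000356).

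Of 26 assembly and copper delivery factors of complex IV, 24 were tested and 0 passed, with 14 above and 10 below 0 and a median log2 difference of 0.14. Cmc1 had the smallest adjusted p, at 6.53, 6.05 and 7.68 CPM in DNAJ-PKAc, against 12.1, 8.05 and 11.7 CPM in WT (log2 -0.65, SE 0.25, edgeR adjusted p = 0.206). Cmc1 was 1 of 2 whose groups did not overlap with DNAJ-PKAc below WT, against 13.1% of all genes. With DNAJ-PKAc above WT there were 2, or 8.33%, against 15.8%.

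With all 6 libraries complex V had the largest median of the 4 complexes, a log2 difference of 0.40 over its 15 genes. Of these 14 lay above 0 and 0 passed the test. In 9, or 60%, every DNAJ-PKAc library lay above WT, against 15.8% of all genes. Without WT B the median was 0.24 and 10 of 15 lay above 0. Without DNAJ-PKAc C it was 0.421, just below the 0.424 of complex IV. Between libraries of a group, the medians of the 4 complexes had a pooled SD of 0.21 to 0.25 on the log2 scale. With Atp5s and Atp5sl counted in, the median of complex V with all 6 libraries was 0.39. Summed, the 15 genes were at 7473, 7696 and 5743 CPM in DNAJ-PKAc, against 5086, 3898 and 5064 CPM in WT. All 3 DNAJ-PKAc libraries lay above WT, with C the nearest to it. Atp5b, the catalytic beta subunit and the gene with most counts of all 44, was at 3012, 3032 and 1989 CPM in DNAJ-PKAc, against 1647, 1368 and 1531 CPM in WT. The groups did not overlap, and the difference was 1.77-fold (2678 ± 597 against 1515 ± 140 CPM, SD, n = 3 each), log2 0.82 with an SE of 0.21. It had the smallest p of the 44 genes but missed the threshold (edgeR adjusted p = 0.0948, DESeq2 adjusted p = 0.0217). Leaving out DNAJ-PKAc C gave a log2 difference of 1.00 (adjusted p = 0.0054), and without WT B it was 0.71 (0.219).

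Atp5a1, the alpha subunit that alternates with beta in the catalytic head, was at 1651, 1681 and 1133 CPM in DNAJ-PKAc, against 1026, 834 and 1082 CPM in WT (log2 0.60, SE 0.21, edgeR adjusted p = 0.175). The 2 head subunits thus had the same order of libraries within DNAJ-PKAc, with B highest and C lowest, and no overlap with WT. The central stalk genes also had no overlap for gamma, Atp5c1 (log2 0.42, adjusted p = 0.264), and delta, Atp5d (0.40, 0.208), but did overlap for epsilon, Atp5e (0.35, 0.481). Of the peripheral stalk, Atp5f1 (log2 0.59), Atp5o, which encodes the oligomycin sensitivity protein (0.61), and Atp5j (0.39) had no overlap. Atp5h, subunit d of that stalk, was at 151, 177 and 146 CPM in DNAJ-PKAc, against 171, 132 and 184 CPM in WT, and its log2 difference of -0.04 (SE 0.18, adjusted p = 0.911) was the lowest of the complex. Atp5j, coupling factor 6, was at 46.6, 56.2 and 47.6 CPM in DNAJ-PKAc, against 41.0, 32.7 and 41.5 CPM in WT (log2 0.39, SE 0.17, adjusted p = 0.243). Despite its symbol, Atp5j2 encodes the unrelated membrane subunit f. It was at 176, 184 and 133 CPM in DNAJ-PKAc, against 120, 79.6 and 106 CPM in WT (log2 0.69, SE 0.21, adjusted p = 0.133). Both had no overlap. The dimer-forming membrane subunits e and g, Atp5k (log2 0.15) and Atp5l (0.12), overlapped between groups. Atp5a1, Atp5b, Atp5f1, Atp5g3, Atp5j2 and Atp5o were called higher without DNAJ-PKAc C (adjusted p of 0.0054 to 0.0368). They made up 40% of the complex, against 14.3% of all genes called higher in that fit.

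The c ring of the ATP synthase, through which protons pass, is built from 1 mature protein encoded by 3 genes that differ in their import sequences. Of the 3, 1 had every DNAJ-PKAc library above WT, against 15.8% of all genes tested. Atp5g3 was at 224, 226 and 128 CPM in DNAJ-PKAc, against 116, 81.5 and 116 CPM in WT. Every DNAJ-PKAc library lay above WT, C only by a small margin, and the difference was 1.84-fold (log2 0.88, SE 0.27, edgeR adjusted p = 0.132), the largest of complex V. Atp5g1 was at 125, 117 and 113 CPM in DNAJ-PKAc, against 130, 90.6 and 106 CPM in WT (log2 0.12, SE 0.17, adjusted p = 0.704). Atp5g2 was at 310, 308 and 405 CPM in DNAJ-PKAc, against 354, 232 and 391 CPM in WT (log2 0.07, or -0.01 with upper-quartile factors, SE 0.24, adjusted p = 0.884). Both overlapped between groups. Atp5g2 was called lower without both WT B and DNAJ-PKAc C (log2 -0.32, adjusted p = 0.0123). Of the counts of the 3 genes together, Atp5g3 took 34.0% (exact 95% interval 32.9 to 35.2), 34.7% (33.4 to 36.0) and 19.8% (18.8 to 20.9) in DNAJ-PKAc, against 19.3% (18.3 to 20.4), 20.2% (18.8 to 21.5) and 18.96% (17.94 to 20.02) in WT. The intervals of the 3 WT libraries and DNAJ-PKAc C overlapped, and DNAJ-PKAc A and B lay above them. Atp5g2 took 47.1% and 47.3% of these counts in DNAJ-PKAc A and B and 62.6% in DNAJ-PKAc C, against 57.4% to 63.7% in WT.

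**Figure D4:**
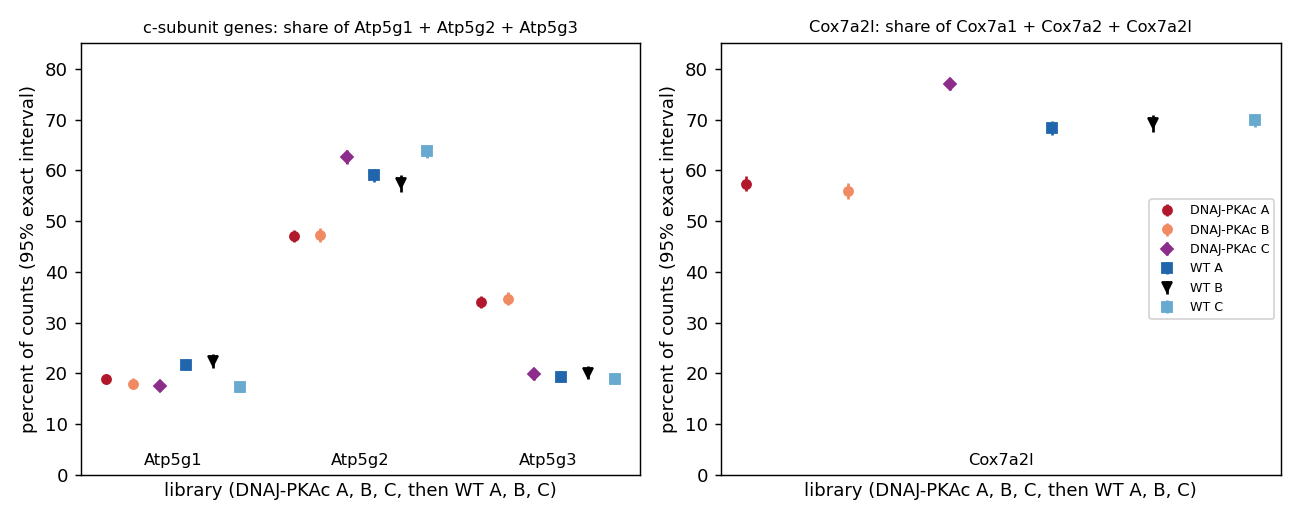
Percent of counts, with exact 95% intervals, taken by each of the 3 c-subunit genes (left) and by Cox7a2l within the Cox7a family (right), for each library in the order DNAJ-PKAc A, B, C, WT A, B, C (x axis). Atp5g3 sits at 34.0% and 34.7% in DNAJ-PKAc A and B and between 18.96% and 20.2% in the other 4 libraries.

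Of 7 assembly and associated factors of complex V, 6 were tested, 0 passed and 5 lay above 0. Usmg5, a small subunit of the dimer, was at 119, 140 and 101 CPM in DNAJ-PKAc, against 85.9, 47.0 and 77.2 CPM in WT (log2 0.78, SE 0.25, edgeR adjusted p = 0.156). The inhibitor gene Atpif1 was at 102, 107 and 108 CPM in DNAJ-PKAc, against 85.5, 58.2 and 78.1 CPM in WT (log2 0.52, adjusted p = 0.168). Neither had overlapping groups. Of the 6 tested, 3, or 50%, had every DNAJ-PKAc library above WT, against 15.8% of all genes. Of the prefix-sharing pair, Atp5s was at 2.28, 1.36 and 4.51 CPM in DNAJ-PKAc, against 3.62, 3.73 and 5.08 CPM in WT (log2 -0.61, SE 0.45, adjusted p = 0.448), and Atp5sl differed by 0.13.

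Over the 44 genes, DNAJ-PKAc A and B both lay above every WT library while C did not in 11, or 25%, against 16.6% of all genes tested. These were Sdhb and Sdhd of complex II, Cyc1, Uqcr10, Uqcrc1 and Uqcrfs1 of complex III, Cycs, and Cox6a1, Cox7a2, Cox7b and Cox7c of complex IV. In 6 genes, Sdha, Uqcrh, Cox6a2, Cox7a2l, Atp5g2 and Atp5sl, or 13.6%, C alone lay above every WT library, against 14.8% of all genes tested. DNAJ-PKAc C was the lowest of its group for 31 genes, or 70.5%, against 42.7% of all genes. Leaving it out changed the count of calls from 0 to 12, and that of all genes from 385 to 2808.

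Per kilobase of transcript, levels spanned a wider range in complexes III, IV and V than in complex II. In WT complex II ran from 44.5 to 104 CPM per kilobase and complex IV from 1.95 to 548. Over the 44 genes the mean ran from 1.76 to 1398 CPM per kilobase in DNAJ-PKAc and from 1.95 to 791 CPM per kilobase in WT, with Atp5b highest in both. The median was 290 in DNAJ-PKAc and 277 in WT for complex IV, 268 and 239 for complex V, 146 and 120 for complex III, and 86.6 and 80.6 for complex II. The ranges of the complexes overlapped in both groups. In WT the next highest genes were Atp5g2 (556 CPM per kilobase), Cox4i1 (548) and Cox8a (476). Lengths are medians over annotated coding transcripts, which may not be the ones these cells use.

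Complex I genes, named Nduf, were set beside them as the most similar group. Of their 44 tested genes 0 passed, against 3.51% of all genes, and the median log2 difference was 0.38. Above 0 lay 41, or 93.2%, against 53.9% of all genes. Every DNAJ-PKAc library lay above WT for 23, or 52.3%, against 15.8% of all genes. WT B was the lowest of the 6 libraries for 36 of the 44, or 81.8%, against 25.1% of all genes. Of 15 genes encoded in mitochondrial DNA, 0 were found in the table under their mt- names, so these were not analysed here. Among 13 regulators of respiratory genes 0 passed, 9 lay above 0 and 4 below. Every DNAJ-PKAc library lay above WT for 4 of them, or 30.8%, against 15.8% of all genes. Every DNAJ-PKAc library lay below WT for 1, against 13.1% of all genes. Tfam, which packages and transcribes mitochondrial DNA, was at 61.8, 66.8 and 45.3 CPM in DNAJ-PKAc, against 38.7, 30.8 and 38.5 CPM in WT (log2 0.69, SE 0.20, edgeR adjusted p = 0.124). Esrra, a nuclear receptor that acts with PGC-1 coactivators, was at 64.6, 61.4 and 47.8 CPM in DNAJ-PKAc, against 42.2, 33.7 and 41.5 CPM in WT (log2 0.57, SE 0.18, adjusted p = 0.153). Neither overlapped between groups. The coactivator gene Ppargc1b was at 2.28, 3.95 and 3.78 CPM in DNAJ-PKAc, against 4.93, 11.3 and 6.62 CPM in WT, also with no overlap (log2 -1.20, SE 0.40, adjusted p = 0.162). Another coactivator gene, Ppargc1a, went the other way, with overlap (log2 0.64, SE 0.41, edgeR adjusted p = 0.384). It was at 11.1, 11.2 and 17.1 CPM in DNAJ-PKAc, against 5.70, 13.9 and 5.63 CPM in WT. Nrf1 (log2 0.34), Gabpa (0.16) and Yy1 (0.14), whose motifs were searched above, did not pass.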

How the data were processed

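The authors deposited un-normalized expected counts for each gene symbol in 1 table, with a column for every library. The submitters' processing notes list STAR 2.5.2b, RSEM 1.3.0 and mm10, with no role. Per the labels' protocols, the kit for total RNA was a stranded one. No source used here states the annotation, the filters or the strand setting of the counting. Exons of Atp5a1, Atp5f1, Atp5j, Atp5l, Atp5o, Cox5a, Cox6a2, Uqcrb and Uqcrc2 overlap another gene in GENCODE M21, so reads of these genes could be shared and their values are uncertain. Only for Atp5o was the overlap on the same strand. Expected counts of all these genes were whole in every library.

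Expected counts were rounded. Genes were kept by filterByExpr (minimum count 10, 10975 genes) and scaled by TMM. The quasi-likelihood model of edgeR 4.0.16 (R 4.3.3) had group as its single term, with dispersions estimated robustly. Adjusted p-values are 2-sided, Benjamini-Hochberg over all genes tested, threshold 0.05. SE is the log2 difference over the square root of F. Libraries of a group differed by more than sampling noise and were counted separately. Intervals are exact binomial. All 44 genes matched RefSeq (GRCm38.p6), and lengths came from GENCODE M21 on the same assembly. The scripts were tested on simulated counts.

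Values in every library are given for the Sdh genes, Cyc1, Cycs, Uqcrfs1, genes with paralogs, and in each larger complex those with the 2 smallest p, most counts, and largest and smallest difference. Other values named beyond this rule were chosen after they were seen. The genes and lists were chosen with earlier results of these data known. Other settings were scaling by RLE or upper quartile, no filter or a minimum of 1 CPM in 3 libraries, limma-voom (3.58.1) with and without quality weights, DESeq2 1.42.0, non-robust dispersions, a replicate block, libraries left out, structural RNA out of library sizes, and a threshold of 0.01.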

Additional observations from a re-analysis of the deposited data

How the results depend on the processing

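The count of 0 genes called lower or higher among the 44 held with RLE and upper-quartile factors, no filter, the stricter filter, limma-voom, non-robust dispersions, the replicate block, structural RNA left out, and the threshold of 0.01. DESeq2 called 3 higher, quality weights 20 higher and 3 lower, and a fit on the other 4 libraries (no WT B, no DNAJ-PKAc C) 18 higher and 4 lower. Calls over all genes were 385, against 974 with DESeq2, 5074 with quality weights, 199 with the replicate block, 5336 with those 4 libraries, and 72 at 0.01. Leaving out 1 library gave 77 to 2808 calls over all genes and 0 to 12 genes higher among the 44, with all 12 from leaving out DNAJ-PKAc C. The median log2 difference then ran from 0.13 (without WT B) to 0.44 over the 44 genes and from 0.0845 to 0.42 in complex III. Same-letter libraries correlated in their deviations from the group mean at 0.21, -0.20 and 0.03 for A, B and C. These values cannot show whether letters pair libraries, since deviations are tied within a group and WT B and DNAJ-PKAc C stood apart. With the replicate block the median was 0.38 and 0 of the 44 were called.

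Of the genes that changed sign, none was called by edgeR with all 6 libraries, and 2 were called lower elsewhere, Cox7a2l with quality weights (adjusted p = 0.0288) and with the 4 libraries (0.000356), and Atp5g2 with the 4 libraries (0.0123). The differences with all 6 libraries were not all small, at 0.38 for Cox6a2 and 0.31 for Uqcrh. With upper-quartile factors Atp5g2 was at -0.0112, Cox7a2l at -0.0114, Cox5b at -0.0374 and Sdha at -0.0498. With RLE factors, and likewise with DESeq2, Cox5b was at -0.00089 and Sdha at -0.0357. With quality weights Atp5g2 was at -0.22, Cox7a2l at -0.41, Cox6a2 at -0.33, Atp5sl at -0.0199, Sdha at -0.0155 and Uqcrq at 0.0339. With those 4 libraries, Atp5g1 was at -0.0098, Atp5g2 at -0.32, Atp5l at -0.0384, Atp5sl at -0.0861, Cox5b at -0.0231, Cox6a2 at -0.51, Cox7a2l at -0.53, Sdha at -0.0470 and Uqcrh at -0.0348. Leaving out 1 library in turn gave -0.0371 to 0.27 for Atp5g1, -0.17 to 0.22 for Atp5g2, -0.21 to 0.0608 for Atp5h, -0.10 to 0.36 for Atp5k, -0.10 to 0.22 for Atp5l, -0.18 to 0.21 for Cox5b, -0.0070 to 0.21 for Cox6a1, -0.0646 to 0.78 for Cox6a2, -0.29 to 0.23 for Cox7a2l, -0.14 to 0.10 for Sdha, -0.0674 to 0.28 for Sdhd and -0.14 to 0.16 for Uqcrq. The cause of these changes was not tested. Cox6a2, Cox7a1 and Atp5s, with 4 to 46 counts per library, are the genes most limited by depth.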
